A study of Mus musculus with 8 samples.

Results

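Small leucine-rich proteoglycans are secreted matrix proteins built around a row of leucine-rich repeats, and type I collagen is the main fibrillar collagen of connective tissue. The genes of this matrix examined in mouse brain were the proteoglycan genes Ogn, Lum, Dcn, Fmod, Bgn, Omd, Aspn and Prelp and the 2 chains of type I collagen, Col1a1 and Col1a2. Members were the probe sets whose single gene symbol in the platform annotation is one of these 10 names. All 10 genes were present, with 22 of the 22626 probe sets tested. The samples were total RNA of the whole brain, taken at 3 months of age from C57/B6 males. They were from BSKO mice, a knockout of SIRT1 specific to the brain, and from WT mice, which were wild-type littermates. There were 4 biological replicates of each genotype, and 1 Affymetrix Mouse430A_2 array for each. The promoter or Cre line behind the knockout and the deleted part of the gene are not given in the sources used here, and neither is whether cells of the meninges carry the deletion.

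The deposited values are log2 values centred on the median of each probe set over the 8 arrays. They carry differences between arrays and no level, so levels of different genes cannot be set against each other and the presence of a tissue's defining markers cannot be checked. Where no BSKO array overlaps a WT array, the highest BSKO value and the lowest WT value are, by the centring, of equal size and opposite sign. Array BSKO 2 stood apart. The SD over its probe sets was 0.831, against 0.150 to 0.314 on the other 7 arrays, and the 5′ minus 3′ difference of Actb, which encodes beta-actin, was -2.44, against -0.104 to 0.489. For this reason the differences of the members are given both with 8 arrays and without BSKO 2. The targeted gene Sirt1, on probe set 1418640_at, had 0.076, -1.46, -0.20 and -0.059 on BSKO 1 to 4, against 0.0041, -0.0041, 0.082 and 0.29 on WT 1 to 4. Its difference did not pass the test (log2 difference -0.50, SE 0.31, limma adjusted p = 0.549). Without BSKO 2 it was -0.15 (SE 0.10, adjusted p = 0.428). What this probe set covers relative to the deletion is not given in the sources used here, so it does not check the labels.

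As background, these proteoglycans bind collagen fibrils and set their thickness and spacing, and several also bind growth factors of the TGF-beta family. The brain tissue itself holds little fibrillar collagen. Fibroblasts of the meninges, and those around larger blood vessels, are the known producers of type I collagen, decorin and lumican in the adult brain. In whole-brain RNA, fewer cells of a type and less RNA per cell cannot be told apart.

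Ogn was the member with the firmest difference, and its RNA fell in BSKO brain once BSKO 2 was left out. With 8 arrays and each gene as the mean of its probe sets, the highest BSKO value was below the lowest WT value for 8 of the 10 genes, all but Bgn and Prelp. Of these, Ogn, Omd, Dcn, Lum and Fmod had the larger differences, 1.88-fold lower for Lum to 3.45-fold lower for Dcn. For Aspn and Col1a1 the mean separated the genotypes with 8 arrays although no probe set alone did. No member passed the test over all probe sets with 8 arrays. Bgn and Prelp overlapped between the genotypes on every probe set, and the 2 collagen genes lay between these sets, with differences of -0.41 for Col1a1 and -0.51 for Col1a2 as means of their probe sets. All 22 member probe sets had a negative difference, where 46.5% of all tested probe sets did. The median over the 22 was -0.79, against 0.022 over all.

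Of the 22 member probe sets, 0 passed an adjusted p of 0.05 with 8 arrays (limma with Benjamini-Hochberg adjustment over 22626 probe sets), where 0.0221% of all probe sets were called lower and 0.00884% higher. At an unadjusted p under 0.05 there were 16 of the 22, and 2440 of all 22626. On 11 of the 22 the BSKO arrays lay wholly below the WT arrays, and on 0 wholly above, where 6.66% of all probe sets were wholly below and 5.67% wholly above. The 22 are not separate genes, since 6 of them read Fmod and vary together. With 1 value per gene 0 of 10 members were called, against 0.0726% of all genes called lower, and 8 of 10 lay wholly below, against 6.85% of all genes with 8 arrays and 10.2% without BSKO 2, where again 8 of 10 did. Without BSKO 2, both Ogn probe sets were called lower, that is 2 of 22, where 1.14% of all probe sets were. In that fit 14 of the 22 lay wholly below, against 10.3% of all, and the median difference was -0.69, against 0.0089 over all. With the pair of replicates (1 and 2, or 3 and 4) as a term and without BSKO 2, 3 of 22 were called lower, both of Ogn and that of Lum, where 1.96% of all probe sets were.

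**Figure D1:**
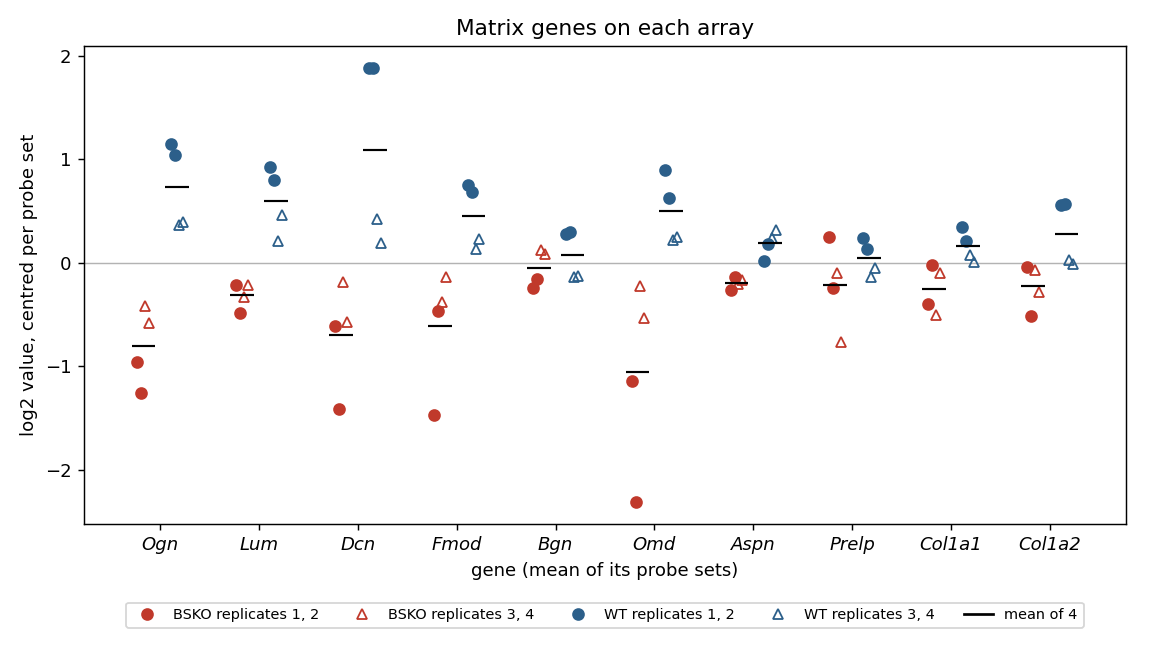
The centred log2 value (vertical axis) of each of the 10 genes, as the mean of its probe sets, on each array, with BSKO in red and WT in blue. Filled circles are replicates 1 and 2, open triangles are replicates 3 and 4, and the black bar is the mean of 4 arrays. For Ogn, Lum, Dcn, Fmod and Omd all red points lie below all blue points, and the blue circles lie above the blue triangles. For Bgn and Prelp the colours overlap.

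Several members are neighbours in the genome, as the RefSeq annotation of GRCm38.p6 orders them. Aspn, Omd and Ogn follow each other on chromosome 13 next to Ecm2, a related matrix gene. Dcn and Lum are adjacent on chromosome 10, followed by Kera and Epyc, and Prelp and Fmod are adjacent on chromosome 1 next to Optc. The promoter windows of 4 members are shown because they set 3 genes whose BSKO arrays lay below the WT arrays, the neighbours Ogn and Omd and the gene Fmod, beside Bgn, whose arrays overlapped. Each runs from 250 bases before the start site to 50 bases after it, from RefSeq on GRCm38.p6, 5′ to 3′ on the strand of the gene, and the table used here holds such a window for 7 of the 10 members. Ogn is at chr13:49607765-49608064 on the plus strand, Omd at chr13:49582212-49582511 on the plus strand, Fmod at chr1:134037004-134037303 on the plus strand and Bgn at chrX:73483351-73483650 on the plus strand. Capitals mark every match, on either strand, to the TATA box TATAAA, the CCAAT box CCAAT, the GC box GGGCGG or the SMAD box CAGAC, which binds the SMAD factors of TGF-beta signalling.
Ogn: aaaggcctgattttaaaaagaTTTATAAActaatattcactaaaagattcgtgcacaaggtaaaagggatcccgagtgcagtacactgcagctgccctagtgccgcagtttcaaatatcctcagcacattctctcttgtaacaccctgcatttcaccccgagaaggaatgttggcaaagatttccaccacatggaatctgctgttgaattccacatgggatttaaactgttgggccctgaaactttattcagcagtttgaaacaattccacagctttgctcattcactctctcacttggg
Omd: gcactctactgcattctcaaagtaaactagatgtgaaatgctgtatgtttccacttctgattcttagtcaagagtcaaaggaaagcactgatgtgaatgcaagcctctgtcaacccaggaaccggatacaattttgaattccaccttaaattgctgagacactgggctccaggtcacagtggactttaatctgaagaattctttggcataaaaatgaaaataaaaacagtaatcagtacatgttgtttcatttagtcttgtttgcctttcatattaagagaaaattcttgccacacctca
Fmod: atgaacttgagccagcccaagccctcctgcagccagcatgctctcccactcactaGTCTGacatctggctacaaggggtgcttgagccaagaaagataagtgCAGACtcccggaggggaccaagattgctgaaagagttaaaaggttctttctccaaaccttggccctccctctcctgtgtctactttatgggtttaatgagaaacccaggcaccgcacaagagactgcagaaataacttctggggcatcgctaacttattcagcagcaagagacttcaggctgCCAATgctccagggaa
Bgn: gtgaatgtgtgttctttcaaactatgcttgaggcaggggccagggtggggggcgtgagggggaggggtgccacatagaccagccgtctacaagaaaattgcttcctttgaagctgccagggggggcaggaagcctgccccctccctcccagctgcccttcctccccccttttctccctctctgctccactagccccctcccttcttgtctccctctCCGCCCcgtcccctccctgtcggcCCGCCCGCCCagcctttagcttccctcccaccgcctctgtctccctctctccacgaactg

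Ogn has a TATA box on both strands, overlapping by 4 bases and far upstream of the start site. Fmod has 2 SMAD boxes and 1 CCAAT box. Bgn has 3 GC boxes, of which a pair shares 2 bases, and Omd has no match to the 4 motifs in this window. Over the 7 member windows, 2 hold a TATA box, 4 a CCAAT box, 2 a GC box and 3 a SMAD box. Of all 32851 windows in the table, 13.6% hold a TATA box, 37.4% a CCAAT box, 35.7% a GC box and 49.6% a SMAD box. None of the 4 motifs is in all 3 windows shown of genes that lay lower, and a match describes letters only.

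Ogn encodes osteoglycin, also called mimecan, a keratan sulphate proteoglycan that takes part in collagen fibril growth. On probe set 1419662_at it had -0.87, -1.93, -0.31 and -0.80 on BSKO 1 to 4, against 1.15, 1.01, 0.31 and 0.43 on WT 1 to 4. The 2 groups did not overlap, and BSKO 2 was the lowest array. The difference was -1.70 (SE 0.35, adjusted p = 0.153) with 8 arrays and -1.38 (SE 0.24, adjusted p = 0.0372) without BSKO 2. On probe set 1419663_at Ogn had -1.05, -0.58, -0.53 and -0.35 on BSKO 1 to 4, against 1.14, 1.07, 0.43 and 0.35 on WT 1 to 4. Here BSKO 2 lay among the other BSKO arrays. The difference was -1.38 (SE 0.23, adjusted p = 0.0916) with 8 arrays and -1.39 (SE 0.24, adjusted p = 0.0398) without BSKO 2. The fold was thus 2.61 and 2.62 lower in BSKO on the 2 probe sets without BSKO 2. Neither call was made when any 1 of the WT arrays, BSKO 3 or BSKO 4 was left out as well, and both were made when BSKO 1 was (adjusted p = 0.0457 and 0.0432).

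Omd encodes osteomodulin, or osteoadherin, a keratan sulphate proteoglycan first known from bone, and its gene lies beside Ogn. Its probe set 1418745_at had -1.14, -2.31, -0.22 and -0.53 on BSKO 1 to 4, against 0.89, 0.63, 0.22 and 0.25 on WT 1 to 4. All BSKO arrays lay below all WT arrays, and BSKO 2 was the lowest by more than 1 unit. The difference was -1.55 (SE 0.42, adjusted p = 0.270) with 8 arrays and -1.13 (SE 0.24, adjusted p = 0.0638) without BSKO 2, so it missed the threshold in both.

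Aspn, the third of these neighbours, encodes asporin, a proteoglycan-like protein with a run of aspartate residues that binds collagen and TGF-beta. Its probe set 1416652_at had -0.19, -0.30, 0.042 and -0.21 on BSKO 1 to 4, against -0.042, 0.39, 0.37 and 0.48 on WT 1 to 4. Its probe set 1448421_s_at had -0.35, 0.022, -0.46 and -0.11 on BSKO 1 to 4, against 0.08, -0.022, 0.11 and 0.16 on WT 1 to 4. The groups overlapped by 1 array on each side in both, at BSKO 3 and WT 1 on one and at BSKO 2 and WT 2 on the other. The differences were -0.46 (SE 0.14, adjusted p = 0.321) and -0.30 (SE 0.13, adjusted p = 0.444) with 8 arrays. Without BSKO 2 they were -0.42 (SE 0.13, adjusted p = 0.151) and -0.39 (SE 0.10, adjusted p = 0.0886), and on 1448421_s_at the groups then did not overlap. The mean of the 2 probe sets spread less, with an SD of 0.06 in BSKO and 0.13 in WT, and did separate the genotypes.

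Dcn encodes decorin, a dermatan or chondroitin sulphate proteoglycan that binds collagen fibrils and TGF-beta. Its probe set 1449368_at had -0.61, -1.41, -0.19 and -0.57 on BSKO 1 to 4, against 1.88, 1.88, 0.42 and 0.19 on WT 1 to 4. The WT arrays alone spanned 1.70, nearly as much as the difference of -1.79 (SE 0.45, adjusted p = 0.242) between the genotypes. Without BSKO 2 the difference was -1.55 (SE 0.44, adjusted p = 0.121). Dcn thus had the largest difference of the 22 member probe sets and a larger SE than any other.

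Lum encodes lumican, a keratan sulphate proteoglycan best known for the ordered collagen of the cornea, and is the neighbour of Dcn. Its probe set 1423607_at had -0.21, -0.48, -0.33 and -0.22 on BSKO 1 to 4, against 0.93, 0.80, 0.21 and 0.46 on WT 1 to 4. The BSKO arrays lay close together, with a mean of -0.31 ± 0.13 (SD, n = 4), against 0.60 ± 0.33 in WT. The difference was -0.91 (SE 0.17, adjusted p = 0.119) with 8 arrays. Without BSKO 2 it was -0.85 (SE 0.16), with an adjusted p of 0.0508 over probe sets and of 0.0455 when the 12393 genes were tested with 1 value each, where 1.39% of genes were called lower. Lum and Ogn were the 2 of 10 member genes called in that second fit (limma adjusted p = 0.0300 for Ogn). Lum has 1 probe set and the same difference in both, so its call turns on whether probe sets or genes are tested.

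The other genes of the Dcn and Lum cluster had positive differences. Epyc, which encodes epiphycan of growth cartilage, had a difference of 0.73 (adjusted p = 0.455), and Kera, which encodes keratocan of the cornea, had 0.64 (adjusted p = 0.470). Neither passed the test, and Kera on BSKO 2 alone was 1.54. Optc, the neighbour of Prelp, differed by -0.06 (adjusted p = 0.808). These are 3 of the 4 measured genes of a list of 11 other leucine-rich proteoglycans and relatives, whose median difference was 0.29 with 8 arrays and 0.11 without BSKO 2. Chad, which encodes chondroadherin of cartilage, was the fourth (-0.05, adjusted p = 0.873).

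Fmod encodes fibromodulin, a keratan sulphate proteoglycan that binds collagen fibrils and activates their cross-linking enzyme. It is read by 6 probe sets. On 1415939_at Fmod had -1.59, -1.25, -0.49 and -0.18 on BSKO 1 to 4, against 0.97, 0.82, 0.18 and 0.35 on WT 1 to 4. The groups did not overlap, with a difference of -1.46 (SE 0.33, adjusted p = 0.193) with 8 arrays and -1.33 (SE 0.34, adjusted p = 0.0946) without BSKO 2. The other 5 probe sets, all of the kind that may cross-hybridise, had differences from -1.31 to -0.83 with 8 arrays and from -1.29 to -0.96 without BSKO 2. BSKO 1 was the lowest array on all 6, at -1.65 to -1.30. BSKO 2 ranged from -1.25 to 0.019 over the 6, a wider range than that of BSKO 1. On 1437718_x_at BSKO 2, at 0.019, lay above WT 3, at -0.019, so that probe set alone of the 6 overlapped with 8 arrays. Over pairs of the 6, the lowest correlation across arrays was 0.834 with 8 arrays and 0.984 without BSKO 2.

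Prelp encodes a heparin-binding proteoglycan thought to anchor basement membranes to collagen, and is the neighbour of Fmod. Its probe set 1416321_s_at had 0.31, 0.044, -0.24 and -0.77 on BSKO 1 to 4, against 0.29, 0.12, -0.18 and -0.044 on WT 1 to 4. Its probe set 1416322_at had 0.19, -0.54, 0.046 and -0.75 on BSKO 1 to 4, against 0.20, 0.14, -0.094 and -0.046 on WT 1 to 4. BSKO 4 was the lowest array on both, and BSKO 1 lay among or above the WT arrays. The differences of -0.21 (SE 0.23, adjusted p = 0.689) and -0.31 (SE 0.21, adjusted p = 0.575) were within the spread between replicates, and so were those of -0.28 (SE 0.23, adjusted p = 0.543) and -0.22 (SE 0.21, adjusted p = 0.603) without BSKO 2. On BSKO 4 the 10 measured choroid plexus markers also had their lowest median, -2.04, against -0.016 to 0.50 on the other BSKO arrays and -0.049 to 0.076 in WT. The part of that tissue in the Prelp values was not tested.

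Bgn encodes biglycan, a chondroitin or dermatan sulphate proteoglycan close to decorin that also acts as a danger signal through Toll-like receptors. On 1416405_at Bgn had -0.32, -0.27, 0.10 and 0.13 on BSKO 1 to 4, against 0.19, 0.35, -0.10 and -0.15 on WT 1 to 4. The 2 genotypes overlapped in part, and the replicates 1 and 2 and the replicates 3 and 4 ran in opposite directions. BSKO 1 and 2 lay below all WT arrays and WT 1 and 2 above all BSKO arrays, while BSKO 3 and 4 lay above WT 3 and 4. The 3 probe sets had differences of -0.16, -0.06 and -0.16 (SE 0.15 to 0.16, adjusted p = 0.664 to 0.863) with 8 arrays. Without BSKO 2 they were -0.11, -0.051 and -0.11 (adjusted p = 0.730 to 0.886).

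Col1a1 and Col1a2 encode the 2 chains that assemble into type I collagen. On 1423669_at Col1a1 had -0.33, -1.09, -0.48 and 0.026 on BSKO 1 to 4, against 0.58, 0.35, 0.18 and -0.026 on WT 1 to 4. On 1455494_at Col1a1 had -0.46, 1.06, -0.52 and -0.22 on BSKO 1 to 4, against 0.12, 0.077, -0.037 and 0.037 on WT 1 to 4. The 2 probe sets disagree on BSKO 2, which is the lowest array on one and the highest on the other. The differences were -0.74 (SE 0.24, adjusted p = 0.341) and -0.09 (SE 0.32, adjusted p = 0.902) with 8 arrays. Without BSKO 2 they were -0.53 (SE 0.17, adjusted p = 0.142) and -0.45 (SE 0.09, adjusted p = 0.0527). The correlation of the 2 probe sets over arrays was -0.364 with BSKO 2 and 0.911 without it. Neither probe set separated the genotypes with 8 arrays. Their mean did so narrowly, with -0.017 on BSKO 2 against 0.0052 on WT 4, and on BSKO 2 it averages values that disagree.

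Col1a2 on 1423110_at had -0.00054, -0.78, -0.17 and -0.28 on BSKO 1 to 4, against 0.36, 0.51, 0.013 and 0.00054 on WT 1 to 4. The groups did not overlap, by a very small margin between BSKO 1 and WT 4. On 1450857_a_at Col1a2 had -0.088, -0.25, 0.033 and -0.29 on BSKO 1 to 4, against 0.75, 0.62, 0.033 and -0.033 on WT 1 to 4. WT 3 and WT 4 lay among the BSKO arrays there. The differences were -0.53 (SE 0.19, adjusted p = 0.404) and -0.49 (SE 0.20, adjusted p = 0.432), both short of the threshold. Without BSKO 2 they were -0.37 (SE 0.14, adjusted p = 0.209) and -0.45 (SE 0.20, adjusted p = 0.266).

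**Figure D2:**
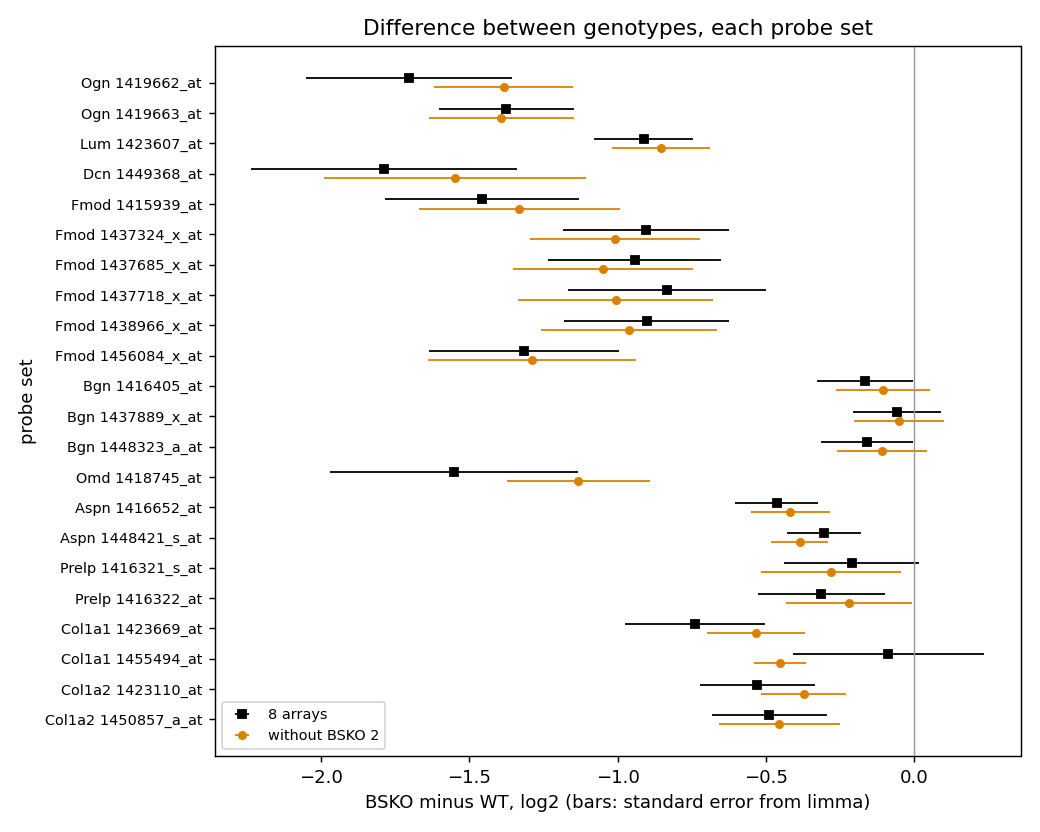
The difference BSKO minus WT on the log2 scale (horizontal axis) of each of the 22 probe sets, with the standard error from limma. Black squares are from 8 arrays and orange circles from the fit without BSKO 2. All squares and circles lie left of 0, furthest for Dcn, Ogn, Omd and Fmod and nearest for Bgn, and Col1a1 1455494_at moves from -0.09 to -0.45 when BSKO 2 is left out.

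The size of the differences was not the same in the replicates 1 and 2 as in the replicates 3 and 4. No label gives this split, which was noticed in earlier results of these data, so the values are a description. On 20 of the 22 member probe sets both WT 1 and WT 2 lay above both WT 3 and WT 4, where 26.8% of all probe sets did, and the exceptions were the 2 of Aspn. For Dcn, the mean of WT 1 and WT 2 was 1.58 above that of WT 3 and WT 4, for Ogn 0.71 and for Lum 0.53. Within BSKO both arrays of replicates 1 and 2 lay below both of replicates 3 and 4 for 5 of the 10 genes, Ogn, Dcn, Fmod, Bgn and Omd, where 18.8% of all genes did.

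Within replicates 1 and 2, the difference BSKO minus WT was -2.89 for Dcn (SE 0.27), -2.49 for Omd (SE 0.36), -2.20 for Ogn (SE 0.15), -1.69 for Fmod (SE 0.31) and -1.21 for Lum (SE 0.16), as means of each gene's probe sets. Within replicates 3 and 4 it was -0.68 for Dcn, -0.62 for Omd, -0.88 for Ogn, -0.43 for Fmod and -0.61 for Lum, with the same SEs. Ogn was thus the furthest from 0 in replicates 3 and 4, and the order of Dcn and Ogn turned. Bgn had -0.49 within replicates 1 and 2 and 0.24 within replicates 3 and 4. Aspn and Prelp were the 2 genes with a more negative difference in replicates 3 and 4. With BSKO 1 alone set against WT 1 and WT 2, the difference was -2.49 for Dcn, -1.90 for Omd, -2.05 for Ogn, -2.19 for Fmod and -1.08 for Lum, and Prelp turned to 0.062.

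Within replicates 1 and 2, 6 of the 22 probe sets were called lower by limma, both of Ogn, 2 of Fmod, and those of Lum and Dcn, where 0.318% of all probe sets were. These calls rest in part on BSKO 2, the array that stood apart, as 1 of the 2 BSKO arrays compared. Within replicates 3 and 4, 0 of the 22 were called lower, where 0% of all probe sets were, although on 16 of the 22 both BSKO arrays lay below both WT arrays, where 25.2% of all did. On 18 of the 22 they did so within replicates 1 and 2, where 22.1% of all did. The SE within replicates 3 and 4 is pooled over all 4 groups of arrays. The spread of BSKO 2 thus also enters the 0 calls there. The change in size between the 2 sets of replicates was tested as an interaction. It was called for 0 of the 22 (adjusted p = 0.322 to 0.954, limma), where 0.0177% of all probe sets were called, and 12 of the 22 had an unadjusted p under 0.05, as did 1094 of all 22626. Without BSKO 2 it was called for 4 of the 22, all of Fmod, where 0.186% of all were. In that fit BSKO 1 alone stands for replicates 1 and 2 of BSKO, and it is assumed to vary like the other groups.

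**Figure D3:**
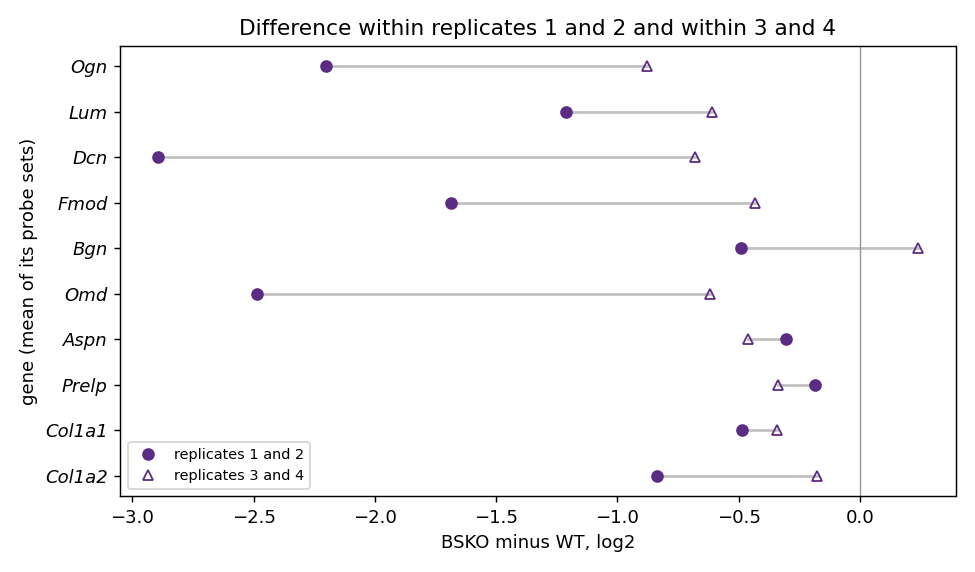
The difference BSKO minus WT on the log2 scale (horizontal axis) of each gene, as the mean of its probe sets, within replicates 1 and 2 (filled circles) and within replicates 3 and 4 (open triangles). The 2 marks are furthest apart for Dcn, -2.89 and -0.68, and for Bgn they lie on either side of 0.

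Across the 8 arrays the member genes varied together to a different degree. Over the 45 pairs of genes the median Pearson correlation was 0.696, and 0.711 without BSKO 2. It was 0.976 for Dcn and Col1a2, 0.964 for Ogn and Dcn, 0.946 for the neighbours Lum and Dcn and 0.937 for the neighbours Ogn and Omd. For the neighbours Fmod and Prelp it was 0.0474, the lowest of the 45. The arrays fall into groups by genotype and replicate, so these values describe that shared layout and are not tests. Outside the members, the 5 genes with the highest correlation to the mean of the 10 were Sult1a1 (0.988), Bmp6 (0.985), Anxa1 (0.984), Popdc3 (0.983) and Gjb2 (0.982), and without BSKO 2 their values were 0.977 to 0.996. Sult1a1 encodes a phenol sulfotransferase, Bmp6 a bone morphogenetic protein, Anxa1 the phospholipid-binding annexin A1 and Gjb2 the gap junction protein connexin 26. Popdc3 encodes a membrane protein of the Popeye family. Without BSKO 2, Popdc3 differed by -1.74 (limma adjusted p = 0.0635) and Anxa1 by -1.36 (adjusted p = 0.0712), and Gjb2 was called lower (-0.96, adjusted p = 0.0272). These genes were picked for their likeness to a profile that is low in BSKO on these same arrays. Their negative differences thus follow from the choice and add no separate evidence.

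The genes that make, join and bind this matrix were read from 6 lists of pathway genes, and those of the tissues around it from 13 lists of markers, each gene as the mean of its probe sets. Together they hold 221 measured genes, of which 0 were called with 8 arrays (limma) and 51 had an unadjusted p under 0.05, where 12.2% of all genes did. Without BSKO 2, 6 were called lower and 3 higher, where 1.39% of all genes were called lower and 0.758% higher. The called genes lay in 4 lists, those of other fibroblast collagens, meninges and fibroblasts, bone and cartilage, and blood cells.

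Of 28 measured markers of meninges and fibroblasts, listed as 31, 24 had a negative difference with 8 arrays, with a median of -0.52, and -0.49 without BSKO 2. Without BSKO 2, 5 fell, namely Gjb2, the matrix gene Efemp1 (-0.95, adjusted p = 0.0300), the transcription factor gene Tbx18 (-0.85, adjusted p = 0.0300), the retinoic acid synthesis gene Aldh1a2 (-1.28, adjusted p = 0.0321) and the cation exporter gene Slc47a1 (-2.10, adjusted p = 0.0469). The median of the 28 on each array was -0.43, -0.66, -0.15 and -0.20 on BSKO 1 to 4, against 0.46, 0.51, 0.016 and 0.025 on WT 1 to 4. The median of the 10 matrix genes was -0.33, -0.47, -0.22 and -0.25 on BSKO 1 to 4, against 0.65, 0.60, 0.17 and 0.21 on WT 1 to 4. Both sets were highest on WT 1 and WT 2 and lowest on BSKO 2. The part of the amount of meninges in these values was not tested. Being highest on WT 1 and WT 2 was not particular to the matrix genes and meningeal markers. The 5 measured dentate gyrus markers had medians of 0.72, 0.77, 0.038 and 0.0094 on WT 1 to 4. On BSKO 1 to 4 theirs were -0.25, -0.08, -0.24 and -0.35.

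The 7 measured markers of striatal projection neurons all had positive differences and were lowest on WT 1 and WT 2. Their median was 0.06, 0.14, 1.12 and 1.03 on BSKO 1 to 4, against -1.94, -1.79, 0.0057 and -0.08 on WT 1 to 4. For example, the dopamine receptor gene Drd2 differed by 1.79 and the phosphodiesterase gene Pde10a by 1.67, and none of the 7 was called in either fit. The part in the matrix values of which brain regions each sample held was not tested. The 12 endothelial markers, by contrast, had medians from -0.09 to 0.012 in BSKO and from -0.044 to 0.07 in WT, and the 11 mural cell markers had a median difference of 0.037 with 8 arrays and 0.035 without BSKO 2.

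**Figure D4:**
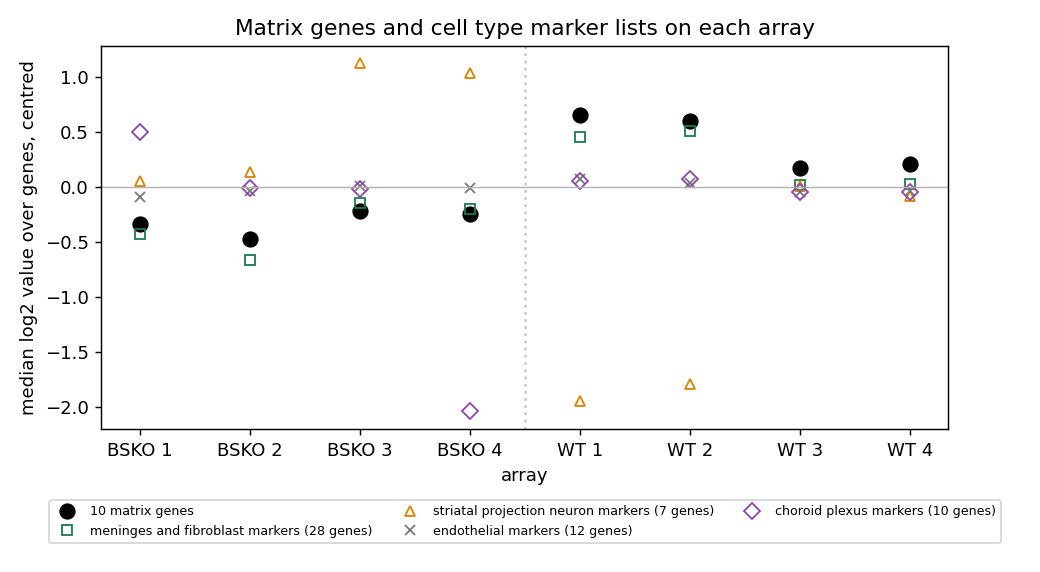
The median centred log2 value (vertical axis) of the 10 matrix genes and of 4 lists of cell type markers on each array, with BSKO arrays left of the dotted line and WT arrays right of it. The matrix genes and the meningeal markers are above 0 on WT 1 and WT 2 and below 0 on all BSKO arrays, the striatal markers are lowest on WT 1 and WT 2, and the choroid plexus markers drop on BSKO 4.

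Other collagens had a median difference nearer to 0 than the 2 chains of type I collagen, and that contrast was not tested. Of 14 measured genes of other fibroblast collagens, 8 had a negative difference with 8 arrays and 10 without BSKO 2, and the median was -0.07 in both fits. That median covers a wide range, from -0.82 for Col5a2 to 1.00 for Col6a1 without BSKO 2. In that fit Col5a2 and Col3a1 (-0.52) were at least as negative as Col1a1 (-0.49) and Col1a2 (-0.41). Neither was called (limma adjusted p = 0.123 and 0.209). On BSKO 2 they were 0.88 and 0.93, and with 8 arrays they differed by -0.47 and -0.25. Without BSKO 2, Col13a1, which encodes a transmembrane collagen, fell by 0.58 (adjusted p = 0.0390), and Col6a1, which encodes a chain of the microfibrillar type VI collagen, rose by 1.00 (adjusted p = 0.0130). On BSKO 2 itself Col6a1 was -0.41, among the WT arrays. Col14a1, a collagen associated with fibril surfaces, differed by -0.38 (adjusted p = 0.203), and Col5a1, a chain of the collagen that starts type I fibrils, by 0.41 (adjusted p = 0.316).

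Genes that process collagen or build the sugar chains of proteoglycans showed no call in either fit. Of 17 measured genes of collagen processing, 8 had a negative difference with 8 arrays, and the median was 0.023 in that fit and -0.016 without BSKO 2. P4ha1, a subunit of the prolyl hydroxylase of collagen, differed by 0.36 (adjusted p = 0.342) and Pcolce, an enhancer of procollagen cleavage, by -0.32 (adjusted p = 0.414). Of 18 genes of glycosaminoglycan chains, 5 had a negative difference with 8 arrays, and the median was 0.11 in both fits. Chst15, a chondroitin sulfotransferase gene, differed by 0.69 (adjusted p = 0.260), and Csgalnact1, which starts chondroitin chains, by -0.24 (adjusted p = 0.409).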

How the data were processed

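The authors deposited log2 values. RMA is named in the submitters' processing notes, with no version given in the sources used here. For 22689 of the 22690 probe sets the 8 arrays had a median of 0 to within 1e-05, so each probe set had been centred, a step that no label records. The 64 control probe sets were left out, with no filter on low values. Gene symbols are those of the platform annotation, checked by gene number against RefSeq (GRCm38.p6): 20380 probe sets had 1 symbol (12393 genes), 691 several and 1555 none. The 2 genotypes were compared by limma (version 3.58.1, under R 4.3.3) through lmFit and eBayes, two-sided and without covariates. P-values were adjusted by Benjamini-Hochberg over every probe set tested, with a threshold of 0.05. Differences within replicates 1 and 2 and within 3 and 4 came from a fit of 4 groups, and the interaction is their difference. The code was tested on simulated data. The members and lists were chosen with earlier results of these data known. All member probe sets are named. Of each other list up to 4 genes with the smallest p could be named, and the 5 genes most correlated with the member mean over 8 arrays. Genes named because they were called without BSKO 2 were chosen after their values were seen, and so were Col3a1 and Col5a2. P-values measure the spread between arrays of separate mice. Precision is limited by 4 arrays a group.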

Additional observations from a re-analysis of the deposited data

Results flagged for a closer look

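In 44 groups of 4 arrays, that is 22 probe sets in each genotype, 2 had an array far from the other 3. That is close to the rate of about 1 in 20 that chance gives. Both were BSKO 1 on cross-hybridising probe sets of Fmod, at -1.38 on 1437685_x_at and at -1.30 on 1438966_x_at, below the other BSKO arrays. The 2 probe sets correlated at 0.993 over the 8 arrays, so the flags are not separate events.

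The 3 probe sets of Bgn ran in opposite directions within the 2 sets of replicates, with both BSKO arrays below both WT arrays in replicates 1 and 2 and above them in replicates 3 and 4. The difference between the differences was -0.80 on 1416405_at, -0.66 on 1437889_x_at and -0.72 on 1448323_a_at. The interaction did not pass the test on any of the 3 (adjusted p = 0.705, limma).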

How the results depend on the processing

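With 8 arrays 7 of all probe sets and 0 of the 22 members were called. Array weights gave 2617 and 8, with a weight of 0.0456 for BSKO 2 and of 3.69 for BSKO 4, quantile normalization 678 and 6, trend and robust settings 108 and 2, and a threshold of 0.10 gave 66 and 1. The replicate pair as a term gave 84 of all, the replicate number as a block 0 of all, and leaving out cross-hybridising probe sets 4 of all, each with 0 members. Leaving out 1 array gave 0 (without WT 4) to 369 (without BSKO 2) of all probe sets and 0 to 2 members. The median difference of the members stayed between -0.92 and -0.63 in all these fits. Bgn 1437889_x_at turned to 0.028 without BSKO 1, 0.014 without WT 1 and 0.0021 without WT 2 (range -0.13 to 0.028 when 1 array was left out), and Col1a1 1455494_at to 0.054 without BSKO 1 and 0.074 without BSKO 3 (range -0.45 to 0.074). The other 20 member probe sets stayed negative in these alternatives of the comparison with 8 arrays. Without BSKO 2, the 2 member calls became 7 with array weights, 7 at a threshold of 0.10, 0 with the replicate number as a block and 0 to 2 when a further array was left out (1, that of Lum, without WT 3), and the 0 interaction calls became 4. The same replicate numbers showed no clear pairing of the samples: the deviations of BSKO and WT arrays of the same number correlated at 0.0858, 0.0562, 0.140 and 0.129, and not every array correlated best with its own number. Such weak correlations do not settle whether samples of the same number were paired. Over all probe sets the split of replicates 1 and 2 from 3 and 4 was weakly shared by the genotypes. For Ogn, Lum, Dcn, Fmod, Bgn, Omd and Col1a2 it ran in opposite directions. For Dcn the mean of replicates 1 and 2 minus that of 3 and 4 was 1.58 in WT and -0.63 in BSKO. For Aspn, Prelp and Col1a1 it ran the same way in both genotypes. The weak sharing was read over all probe sets from deviations from the genotype mean. BSKO and WT arrays of the same set correlated at 0.0307 to 0.165, and those of different sets at -0.147 to -0.0374. No filter on brightness could be applied to centred values. Alternatives of the fit without BSKO 2 were added after seeing the data.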

Other observations

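Growth factors and receptors that bind this matrix, and the enzymes that cut it, were not called in either fit. Of 16 measured genes of matrix partners and receptors, 9 had a negative difference with 8 arrays, with a median of -0.03 (-0.09 without BSKO 2). Tgfb2, a ligand of the TGF-beta family that decorin-type proteoglycans bind, had -0.04, -0.58, -0.36 and -0.77 on BSKO 1 to 4, against 0.46, 0.55, 0.09 and 0.0040 on WT 1 to 4 (log2 difference -0.72, adjusted p = 0.216). Bmp4, a bone morphogenetic protein gene, differed by -0.54 (adjusted p = 0.316). Both did not overlap between the genotypes. Of 14 genes of matrix degrading enzymes and their inhibitors, 8 had a negative difference with 8 arrays, with a median of -0.04 (-0.11 without BSKO 2). The inhibitor genes Timp2 (-0.46, adjusted p = 0.358) and Timp4 (-0.43, adjusted p = 0.379) had all BSKO arrays below all WT arrays, and the metalloproteinase gene Mmp14 (0.21, adjusted p = 0.407) had them above.

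With 8 arrays, the other marker lists had median differences of -0.45 for choroid plexus, 0.025 for bone and cartilage, 0.26 for skeletal muscle, -0.72 for dentate gyrus, -0.18 for astrocytes, -0.064 for oligodendrocytes, -0.081 for microglia, 0.14 for blood cells and -0.18 for neurons. Without BSKO 2 they were -0.55 for choroid plexus, -0.053 for bone and cartilage, 0.13 for skeletal muscle, -0.74 for dentate gyrus, -0.12 for astrocytes, -0.053 for oligodendrocytes, -0.0097 for microglia, -0.061 for blood cells and -0.0021 for neurons. The medians of blood cells and of bone and cartilage thus turned in sign with BSKO 2, and that of neurons lay near 0 without it. In the bone and cartilage list Phex, a bone cell endopeptidase gene, rose without BSKO 2 (1.08, adjusted p = 0.0300), while Dmp1, a bone matrix gene, differed by -0.68 in that fit (adjusted p = 0.0603). In the blood cell list Ighm, the immunoglobulin mu heavy chain gene, rose (0.56, adjusted p = 0.0300).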
